A study of Mus musculus with 6 samples.

Results

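The miR-181 family was followed in mouse fetal liver, by small RNA sequencing, as the 7 mature miRNAs of a fixed list, chosen by name among the 1626 miRNAs of the deposited table. All 7 were present: the guide arms mmu-miR-181a-5p, mmu-miR-181b-5p, mmu-miR-181c-5p and mmu-miR-181d-5p, and the passenger arms mmu-miR-181a-1-3p, mmu-miR-181a-2-3p and mmu-miR-181c-3p. The prefix mmu- marks mouse and is mostly left out here. The study compared C57BL/6J embryos that were wild type (WT, 3 libraries, numbered 1 to 3) with C57BL/6J embryos of genotype miR-144/451-/- (KO, 3 libraries, numbered 4 to 6), which carry a homozygous deletion of an erythroid miRNA locus. Neither group had a treatment named, and the labels gave no embryonic day. Total RNA was taken from fetal liver cells with no sort named, so the libraries mix erythroid precursors with hepatoblasts and other cells, and fewer cells of a type cannot be told apart from less RNA per cell. Whether the 3 libraries of a genotype came from separate embryos was not stated, so the p-values speak for the spread among these libraries only, part of which may be technical.

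A miRNA hairpin is cut into a duplex, and one strand, the guide, is kept by an Argonaute protein while the other, the passenger, is mostly degraded. The guide finds its target mRNAs chiefly by its seed, bases 2 to 8 from the 5′ end. miR-181 is known from blood cell development. miR-181a is abundant in immature thymocytes, where it raises the sensitivity of T cell receptor signalling by lowering several phosphatases, and the family has also been linked to B cell and natural killer cell development.

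The 4 guide sequences are shown because a shared seed makes them 1 targeting family. The sequences are those of RefSeq (GRCm38.p6), written 5′ to 3′ with the seed in capitals.
mmu-miR-181a-5p: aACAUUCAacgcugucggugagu
mmu-miR-181b-5p: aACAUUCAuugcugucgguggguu
mmu-miR-181c-5p: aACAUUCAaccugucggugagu
mmu-miR-181d-5p: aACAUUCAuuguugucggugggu
Among the 1376 miRNAs of the table with a RefSeq mature sequence, these 4 were the only ones with this seed. With positions counted from 1 at the 5′ end of miR-181a-5p, miR-181b-5p differed from it by A9U, C10U and A21G and by 1 added base at the end. miR-181d-5p differed from miR-181a-5p by A9U, C10U, C12U and A21G, so between miR-181b-5p and miR-181d-5p the only substitution was C12U. miR-181c-5p had no substitution against miR-181a-5p and lacked 1 base, the G at position 11. How reads that match more than 1 miRNA were assigned is not given in the sources used here, so reads may have moved between these near-identical guides. Over the 45 pairs of miR-181 miRNAs in the table, 0 had counts within 5% of each other in all libraries. The closest pair, miR-181a-1-3p and miR-181c-3p, differed by up to 17.9%. Such a check finds only rows with nearly equal counts. It cannot show whether some reads of a guide were counted under another.

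The passenger sequences are shown because they tell apart hairpins that give the same guide; capitals again mark bases 2 to 8.
mmu-miR-181a-1-3p: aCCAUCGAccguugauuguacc
mmu-miR-181a-2-3p: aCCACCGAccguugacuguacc
mmu-miR-181c-3p: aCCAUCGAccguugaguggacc
miR-181a-1-3p and miR-181c-3p shared their bases 2 to 8 and differed by U16G and U19G. miR-181a-2-3p differed from miR-181a-1-3p by U5C, which lies in that stretch, and by U16C.

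The family comes from 3 places in the genome, each with a pair of hairpins (GRCm38, GENCODE M21). On chromosome 1, Mir181a-1 (137966455 to 137966541) and Mir181b-1 (137966639 to 137966718) lie 97 bases apart on the plus strand, in an intron of the non-coding transcript Gm4258. They also overlap an exon of the long non-coding RNA A430106G13Rik on the same strand. On chromosome 2, Mir181a-2 (38852735 to 38852810) and Mir181b-2 (38853830 to 38853918) lie 1019 bases apart on the plus strand, within an intron of Nr6a1, a nuclear receptor gene on the minus strand. On chromosome 8, Mir181c (84178873 to 84178961) and Mir181d (84178716 to 84178787) lie 85 bases apart on the minus strand, in an intron of Nanos3, a gene of germ cell development, on that strand. miR-181a-5p and miR-181b-5p each arise from both of the first clusters, so their counts cannot be split between chromosomes 1 and 2. The hairpins of miR-181a are shown with both arms in capitals, since the left arm is identical in them and only the right arm separates the clusters.
Mir181a-1: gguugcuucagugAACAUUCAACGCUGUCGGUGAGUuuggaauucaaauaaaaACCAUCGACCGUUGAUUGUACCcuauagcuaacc
Mir181a-2: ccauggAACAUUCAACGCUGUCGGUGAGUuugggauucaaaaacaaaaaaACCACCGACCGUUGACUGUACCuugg

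The libraries held 16243894 to 27089133 miRNA counts. Products of the deleted locus took 17.57% to 24.09% of counts in WT and 0.02144% to 0.02315% in KO, as the genotype labels state. CPM stands for counts per 1000000 counts of the library, here after TMM scaling, which is explained below. On that scale the mean level of miR-451a was 193200 over the WT libraries, against 165 over the KO libraries. Its edgeR log2 fold was -10.19, beside -10.32 for miR-144-5p and -10.12 for miR-144-3p. This loss bears on every other miRNA, because removing the locus raises the share of all the rest. In counts scaled to library totals alone, the median miRNA outside the locus stood 0.34 higher in KO on the log2 scale. TMM scaling, which sets libraries equal at their typical miRNA, brought that median to -0.014. Values below are given as TMM-scaled CPM unless the share of all counts is named.

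miR-181 was a moderately abundant family. Its 4 guides together took 0.519%, 0.536% and 0.479% of all miRNA counts in WT libraries 1 to 3 (Wilson 95% intervals 0.516 to 0.522, 0.534 to 0.539 and 0.476 to 0.481), and 0.536%, 0.532% and 0.498% in KO libraries 4 to 6 (0.533 to 0.540, 0.528 to 0.535 and 0.495 to 0.501). The mean was 0.511% ± 0.0296 in WT and 0.522% ± 0.0209 in KO (SD, n = 3 each), so the genotypes overlapped in the share of all counts. Of the counts outside the deleted locus the guides took 0.684%, 0.651% and 0.599% in WT and 0.536%, 0.532% and 0.498% in KO. On this second denominator the WT libraries all lay above the KO libraries, with means of 0.644% ± 0.0424 and 0.522% ± 0.0209 (SD, n = 3 each). The intervals hold for counting error alone, because the reads carry no molecular identifiers and need not be separate molecules.

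mmu-miR-181a-5p was the most abundant member in all 6 libraries, between the 56th and the 73rd place of all miRNAs by count. In WT libraries 1, 2 and 3 its level was 2678, 2877 and 2609 CPM, and in KO libraries 4, 5 and 6 it was 2028, 2152 and 2084 CPM. Every KO library was below every WT library, and libraries of a genotype lay close together. The means were 2721 ± 139 and 2088 ± 61.8 CPM (SD, n = 3 each). The log2 fold was -0.38 (SE 0.12, 95% interval -0.66 to -0.10; edgeR quasi-likelihood test, Benjamini-Hochberg adjusted p = 0.271). The difference did not pass the test over all 876 tested miRNAs. In the share of all counts the same miRNA stood at 0.236%, 0.256% and 0.228% in WT and 0.248%, 0.236% and 0.226% in KO, where the genotypes overlapped.

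mmu-miR-181b-5p, which has the same seed and the same pair of source clusters, was second at 2299, 2256 and 1981 CPM in WT and 1733, 1912 and 1745 CPM in KO. WT library 3 came nearest to the KO libraries, without overlap. The log2 fold was -0.28 (SE 0.13, 95% interval -0.59 to 0.029; edgeR adjusted p = 0.492). The guides of the chromosome 8 cluster were rarer. miR-181d-5p stood at 585.8, 553.8 and 519.6 CPM in WT and 388.9, 477.5 and 458.4 CPM in KO, with KO library 4 lowest. Its log2 fold was -0.32 (SE 0.16, 95% interval -0.69 to 0.044; edgeR adjusted p = 0.509). miR-181c-5p stood at 318.3, 330.3 and 364.5 CPM in WT and 240.7, 301.9 and 298.3 CPM in KO, and KO library 4 was again the lowest. Its log2 fold was -0.27 (SE 0.17, 95% interval -0.67 to 0.13; edgeR adjusted p = 0.598).

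The passenger arms were present at 14.4 to 33.9 CPM. miR-181a-1-3p, the passenger of the chromosome 1 hairpin, stood at 32.2, 33.9 and 30.7 CPM in WT and 24.9, 29.6 and 29.4 CPM in KO. It had the smallest difference of the family, a log2 fold of -0.21 (SE 0.18, 95% interval -0.63 to 0.21; edgeR adjusted p = 0.68), and the groups were separated by little. miR-181a-2-3p, its counterpart from chromosome 2, stood at 21.9, 23.5 and 21.03 CPM in WT and 15.9, 14.4 and 20.3 CPM in KO. KO library 6 was close to the WT range and KO library 5 lowest, and the log2 fold was -0.39 (SE 0.20, 95% interval -0.88 to 0.088; edgeR adjusted p = 0.523). miR-181c-3p, the passenger of the chromosome 8 hairpin, stood at 31.6, 30.3 and 30.1 CPM in WT and 22.4, 27.0 and 24.1 CPM in KO. Its WT libraries lay closer together than its KO libraries, and its log2 fold was -0.32 (SE 0.17, 95% interval -0.74 to 0.092; edgeR adjusted p = 0.545).

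**Figure D1:**
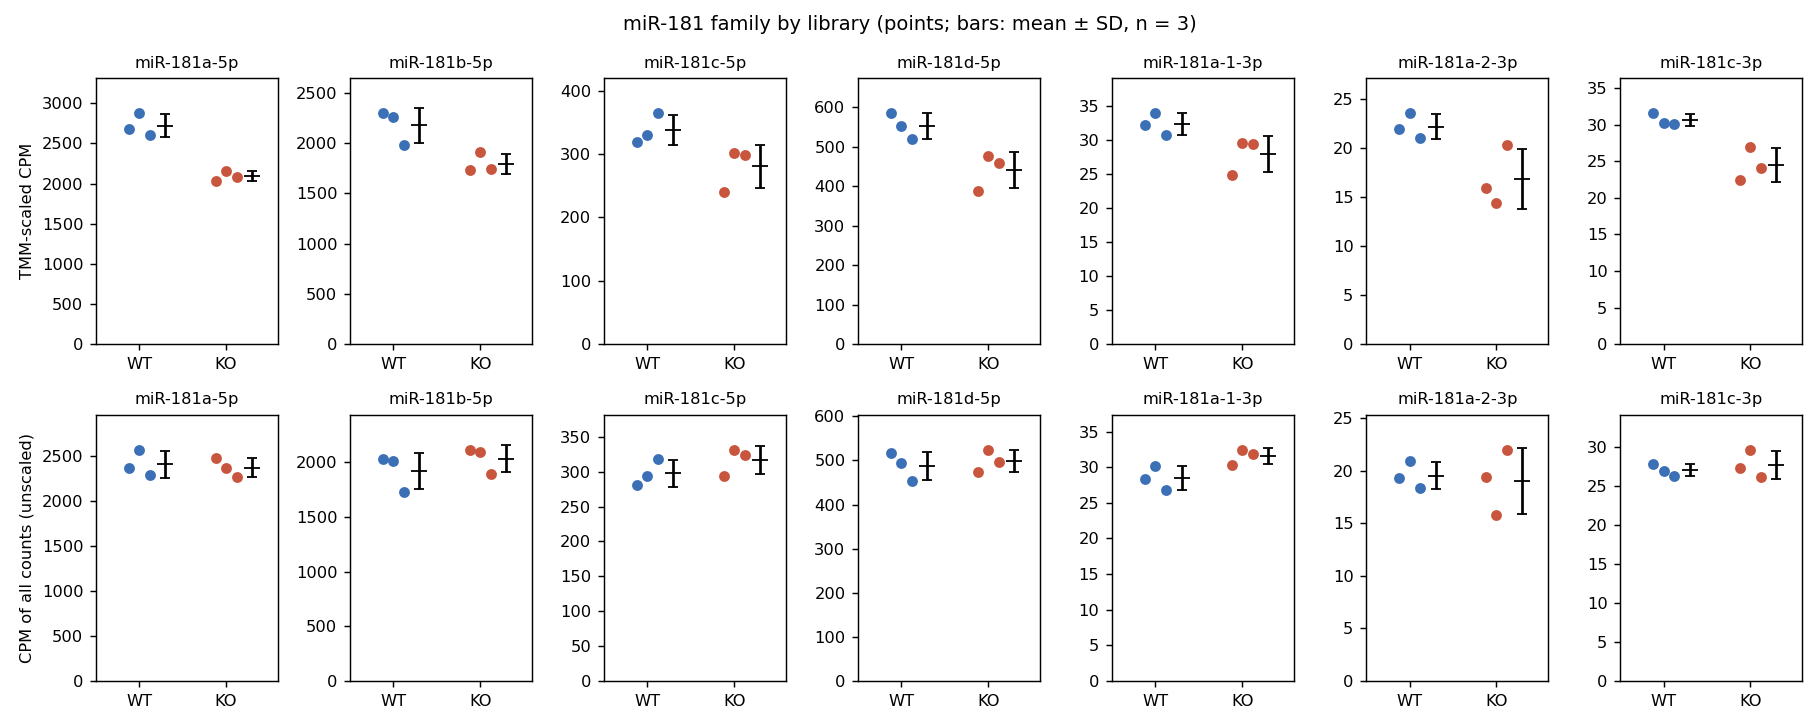
Level of each of the 7 miR-181 members in each library (points; bars give the mean and SD of 3 libraries), on linear axes from 0; upper row TMM-scaled CPM, lower row unscaled CPM of all counts. In the upper row every KO point is below every WT point (miR-181a-5p 2028 to 2152 against 2609 to 2877 CPM), and in the lower row the genotypes overlap for 6 of the 7 members.

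Of the 7 members, 0 passed the edgeR test at an adjusted p under 0.05, with a background of 0.457% of the 876 tested miRNAs called higher and 0.342% called lower in KO, the latter being the locus itself. DESeq2 and limma-voom also called 0. At an unadjusted p under 0.05, edgeR and limma-voom each had 1 member (in edgeR miR-181a-5p, at 0.0144) and DESeq2 had 3, all lower in KO. At that p, edgeR had 1.71% of its 876 tested miRNAs lower in KO, limma-voom 2.17% of the same number and DESeq2 2.37% of 1558. All 7 passed the filter on low counts and all 7 had a log2 fold below 0, from -0.39 to -0.21, where 52.5% of the tested miRNAs were below 0. Their median was -0.32, beside -0.014 over all tested miRNAs. The KO values lay wholly below the WT values for 7 of the 7, and 5.94% of the tested miRNAs showed the same. The members share seeds, clusters and possibly reads, and all take the same scaling factors, so they are not 7 separate observations. The within-genotype SD of the log2 level had a median of 0.11 over the members and 0.32 over all tested miRNAs, many of which had lower counts.

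The direction rested on the scaling. In shares of all counts, 6 of the 7 members overlapped between the genotypes. miR-181a-1-3p had all KO libraries above all WT libraries, which held for 31.2% of the tested miRNAs on that scale, and 0 members lay wholly below, against 0.571%. Fitted with library totals alone, the log2 folds were -0.022 for miR-181a-5p, 0.082 for miR-181b-5p, 0.087 for miR-181c-5p, 0.031 for miR-181d-5p, 0.15 for miR-181a-1-3p, -0.036 for miR-181a-2-3p and 0.035 for miR-181c-3p. The family therefore kept nearly the same part of the library when the locus was gone, while the typical other miRNA took a larger part. In shares of the counts outside the locus, 7 of the 7 members again had all KO libraries below all WT libraries, against 4.47% of the 873 tested miRNAs outside the locus.

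**Figure D2:**
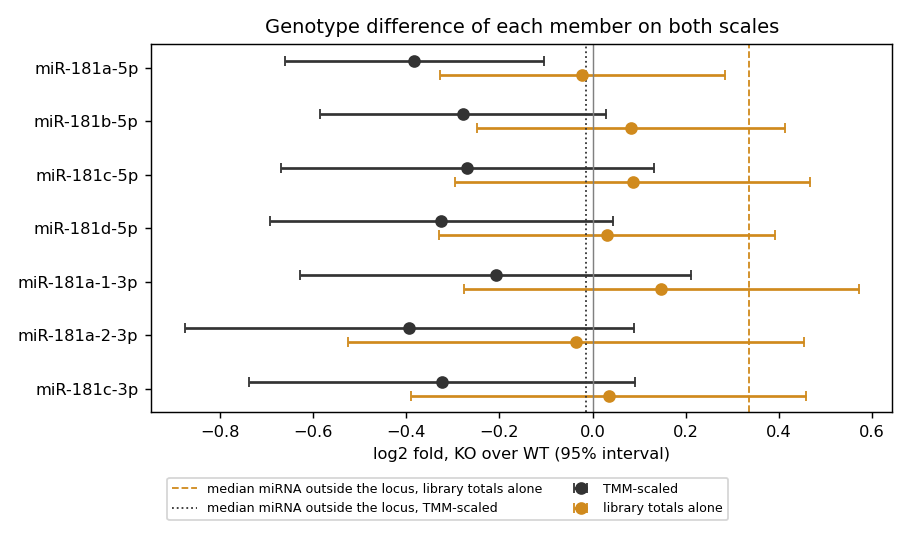
Log2 fold of KO over WT with 95% interval for each member, fitted with TMM scaling (dark) and with library totals alone (orange); vertical lines mark the median miRNA outside the locus on each scale. TMM-scaled folds run from -0.39 to -0.21, those from library totals from -0.036 to 0.15, below the median of 0.34 on that scale.

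**Figure D3:**
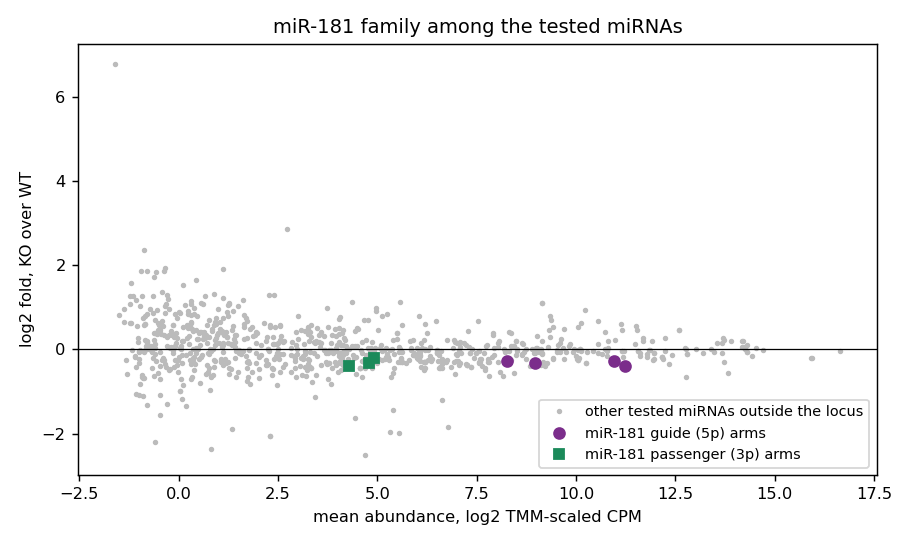
Each tested miRNA outside the locus by mean level (x axis, log2 of TMM-scaled CPM) and genotype difference (y axis, log2 fold of KO over WT); purple circles are the miR-181 guide arms and green squares the passenger arms. The 7 members lie slightly below 0, at -0.39 to -0.21, at both high and low abundance.

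The make-up of the guide pool was steady. miR-181a-5p made up 47.0% ± 1.27 of miR-181 guide counts in WT and 45.4% ± 0.883 in KO (SD, n = 3 each). miR-181b-5p made up 37.6% ± 1.45 and 39.0% ± 0.818, miR-181d-5p 9.55% ± 0.383 and 9.57% ± 0.623, and miR-181c-5p 5.85% ± 0.698 and 6.07% ± 0.53. The order a, b, d, c was the same in all 6 libraries. miR-181a-5p exceeded miR-181b-5p 1.13- to 1.32-fold, and miR-181c-5p stood at 0.543 to 0.702 of miR-181d-5p. These are comparisons of read counts, and the efficiency with which each small RNA was captured was not measured.

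Ratios between paralogues answer whether the clusters shifted against each other, and they need no scaling. Over 6 such ratios the exact two-sided permutation p lay between 0.3 and 0.7 (Benjamini-Hochberg adjusted p 0.6 to 0.7), where 0.1 is the smallest p that 3 against 3 libraries can give, so this design could not pass 0.05. The ratio of miR-181a-5p to miR-181b-5p was 1.25 ± 0.0786 in WT and 1.16 ± 0.0347 in KO, and that of miR-181c-5p to miR-181d-5p 0.614 ± 0.0805 and 0.634 ± 0.016 (SD, n = 3 each). Both pairs lie within shared clusters. Across clusters, the ratio of miR-181a-5p to miR-181c-5p was 8.09 ± 0.824 and 7.51 ± 0.794, and that of miR-181b-5p to miR-181d-5p 3.94 ± 0.131 and 4.09 ± 0.334 (SD, n = 3 each). In each of these ratios the WT and KO libraries overlapped.

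The passenger arms gave the only direct comparison of chromosome 1 with chromosome 2. The ratio of miR-181a-1-3p to miR-181a-2-3p was 1.47, 1.44 and 1.46 in WT libraries 1 to 3, and 1.56, 2.05 and 1.45 in KO libraries 4 to 6. The WT libraries were nearly equal, while KO library 5 stood apart from the others. The log2 difference of 0.20 became 0.046 without KO library 5, which held 260 counts of miR-181a-2-3p. miR-181c-3p stood at 0.565 ± 0.032 of the summed miR-181a passengers in WT and at 0.55 ± 0.0647 in KO (SD, n = 3 each).

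**Figure D4:**
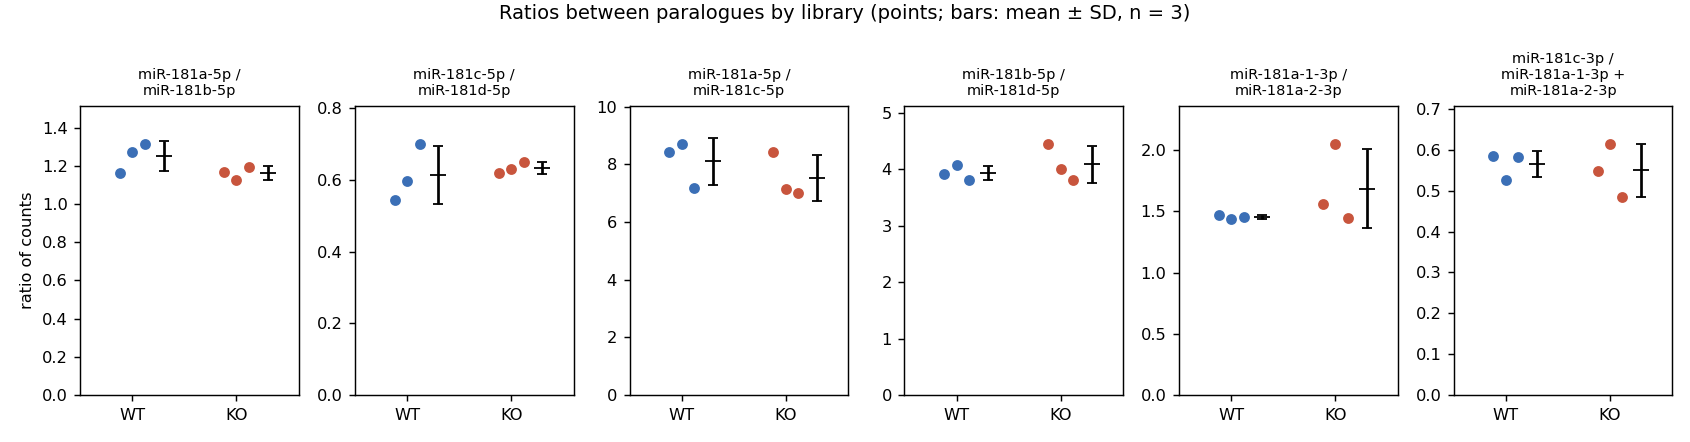
Ratios of counts between miR-181 paralogues in each library (points; bars give the mean and SD of 3 libraries), linear axes from 0. WT and KO overlap in each panel; in the ratio of miR-181a-1-3p to miR-181a-2-3p KO library 5 lies highest, at 2.05.

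The table also held the passengers miR-181b-1-3p, miR-181b-2-3p and miR-181d-3p, which are not among the 7. The WT and KO means were 10.3 ± 1.53 and 8.77 ± 0.959 CPM for miR-181b-1-3p, and 2.32 ± 0.451 and 1.87 ± 0.272 CPM for miR-181b-2-3p (SD, n = 3 each). Their log2 folds were -0.24 (SE 0.20) and -0.31 (SE 0.26; edgeR adjusted p = 0.68 for both). miR-181d-3p had 2 to 7 counts per library and was not tested. With all passengers counted, the chromosome 1 cluster gave 43.5% ± 1.34 of them in WT and 45.7% ± 1.39 in KO. Chromosome 2 gave 25.0% ± 0.395 and 23.4% ± 3.4, and chromosome 8 gave 31.6% ± 1.54 and 30.9% ± 2.12 (SD, n = 3 each). The chromosome 8 cluster thus had a larger part of the passengers than of the guides.

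The guide outnumbered the passenger in each of the 4 hairpin groups, by very different factors. Summed over the 6 libraries, miR-181d had 62785 guide and 29 passenger counts, a ratio of 2165 (exact binomial 95% interval 1507 to 3233, counting error only). The ratio was 169.5 for miR-181b (161.0 to 178.5), 48.2 for miR-181a (47.0 to 49.4) and 11.3 for miR-181c (10.9 to 11.7). In read counts the cluster mates miR-181c and miR-181d thus lay at opposite ends, although their guides have the same seed. Reads assigned to the wrong guide, or unequal capture of the arms, would change these ratios, and neither was measured. The passenger's share of both arms was 7.48% to 9.03% for miR-181c and 0.0187% to 0.0809% for miR-181d over the libraries, without overlap.

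Arm ratios were also set against the other hairpins. Of 278 hairpin groups in which both arms averaged at least 10 counts, 147 had the 5p arm as the more abundant. By this ratio 25 groups (8.99%) were more biased to 5p than miR-181b, 46 (16.5%) more than miR-181a and 76 (27.3%) more than miR-181c; miR-181d fell under the count minimum.

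The arm ratio did not separate the genotypes. For miR-181a it was 49.4, 50.1 and 50.4 in WT libraries 1 to 3 and 49.6, 48.9 and 42.0 in KO libraries 4 to 6. KO library 6 was the lowest and the other libraries lay close together. The log2 difference was -0.10 for miR-181a (SE 0.17, 95% interval -0.48 to 0.29), -0.029 for miR-181b (SE 0.18, -0.44 to 0.38) and 0.053 for miR-181c (SE 0.19, -0.37 to 0.47). The limma Benjamini-Hochberg adjusted p lay between 0.974 and 0.977. Of these 3 groups 0 were called and 0 had an unadjusted p under 0.05, where limma called 0% of the 278 and 5.4% had an unadjusted p under 0.05.

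**Figure D5:**
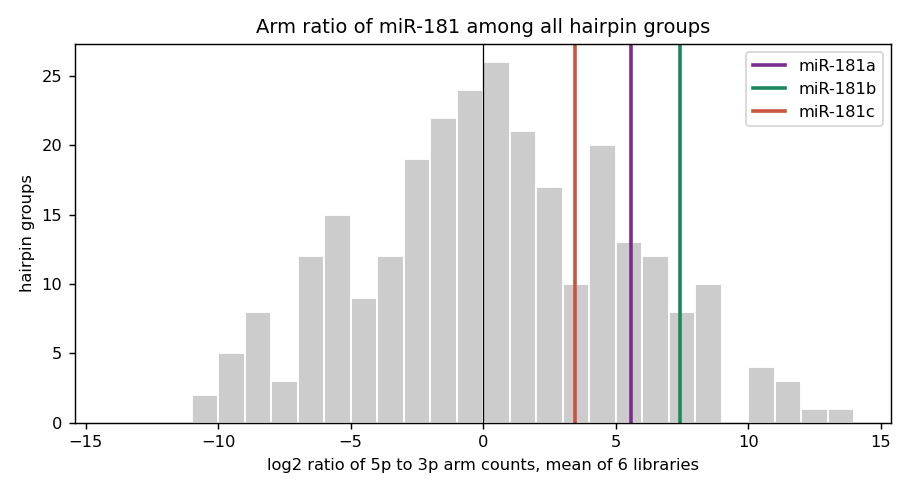
Number of hairpin groups by the log2 ratio of 5p to 3p counts (mean of 6 libraries, 278 groups); coloured lines mark miR-181a, miR-181b and miR-181c. All 3 lie on the 5p side, miR-181b farthest and miR-181c nearest to 0.

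Other miRNAs of progenitor and lymphoid cells were compared by lists drawn up with earlier results of these data known. Of 18 progenitor miRNAs, 0 passed the edgeR test, 14 had a log2 fold below 0 and 4 above, with a median of -0.34, close to that of the miR-181 members. The most abundant were miR-223-3p, a myeloid miRNA that tunes granulocyte formation (-0.55, SE 0.24), miR-126a-3p, of endothelial and stem cells (0.031, SE 0.21), and miR-24-3p (-0.10, SE 0.19; edgeR adjusted p 0.459 to 0.999 for these 3). Of 12 lymphoid miRNAs, 0 passed, 6 lay below and 6 above 0, with a median of -0.087. There miR-142a-3p and miR-142a-5p, which mark all blood lineages, stood at 0.042 (SE 0.18) and 0.012 (SE 0.16), and miR-29a-3p at 0.040 (SE 0.17; edgeR adjusted p = 0.999 for each). The lymphoid median lay nearer to that of all tested miRNAs than to that of the miR-181 members, a difference that was not tested. A low median was not particular to the progenitor list. It was -0.34 for myeloid miRNAs (3 of 4 below 0), -0.24 for mesenchymal (5 of 5) and -0.20 for hepatocyte ones (5 of 6). For muscle miRNAs it was -1.99 (3 of 3), for erythroid ones -0.045 (5 of 8) and for endothelial ones 0.11 (0 of 2). The lymphoid list was mixed, with 6 members on each side of 0. KO lay wholly below WT for miR-342-3p (424 to 581 CPM in WT, 393 to 403 in KO). The same held for miR-155-5p (138 to 172 and 112 to 128 CPM), and for 5.94% of all tested miRNAs. KO lay wholly above WT for miR-29b-3p (270 to 296 and 300 to 448 CPM) and miR-29c-3p (255 to 284 and 293 to 433). The share of all tested miRNAs wholly above on this scale was not counted. For miR-150-5p the genotypes overlapped, at 30.9, 51.9 and 65.8 CPM in WT and 22.7, 29.6 and 42.3 CPM in KO. These members were picked to show the spread, and their separation was not tested as a trait of the list. The lists overlap: miR-29a-3p, miR-146a-5p and miR-155-5p stand in both.

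Marker levels of other cell types varied between libraries. The summed progenitor miRNAs ran from 34460 to 39150 CPM in WT and from 26440 to 34030 CPM in KO. These ranges did not overlap, but the lowest WT sum (34460 CPM) lay close to the highest KO sum (34030 CPM). Much of these sums was miR-223-3p, also a myeloid marker, with means of 17250 ± 2739 and 11750 ± 3822 CPM (SD, n = 3 each). Taken alone, miR-223-3p overlapped between the genotypes, with KO library 5 above WT library 3. The progenitor sum without miR-223-3p was not compared. The summed myeloid miRNAs (4 members) ran from 15760 to 20770 CPM in WT and from 8922 to 16350 CPM in KO, and the erythroid ones (8 members) from 148800 to 223300 and from 168200 to 202300 CPM, both with overlap. The hepatocyte miRNAs (6 members) ran from 37960 to 138300 and from 45660 to 107600 CPM, the endothelial (2) from 7323 to 10520 and from 7735 to 11050, the mesenchymal (5) from 2286 to 3157 and from 2052 to 2979, and the muscle ones (3) from 14.4 to 400.4 and from 13.3 to 83.5 CPM. WT library 1 stood apart on the muscle miRNAs, with 203.8 CPM of miR-206-3p where the other libraries had 6.97 to 41.8; without that library the log2 fold of miR-181a-5p was -0.39. In each of these lists 0 members were at 0 in all libraries. The part of the progenitor and myeloid levels in the miR-181 values was not tested. miR-122-5p, the main hepatocyte miRNA, was highest in WT library 3 and KO library 6 (117800 and 92270 CPM); with its level as a covariate the log2 fold of miR-181a-5p was -0.38, with an edgeR adjusted p of 0.072, and 0 members passed.

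The miRNAs whose log2 level followed that of miR-181a-5p most closely over the 6 libraries, among 231 with a mean of at least 100 CPM, were the deleted miR-144-5p, miR-144-3p and miR-451a (Pearson r 0.976, 0.971 and 0.962). For these the likeness is that of the genotypes' difference in a gene that was removed. Next came miR-532-5p (r = 0.955), with WT and KO means of 888.5 and 759 CPM, and miR-20b-5p (r = 0.946), with 117 and 98.1 CPM; their log2 folds of -0.23 (SE 0.13) and -0.25 (SE 0.16) did not pass (edgeR adjusted p = 0.564 and 0.598). Within the family the correlations of log2 level ran from 0.61 (miR-181b-5p with miR-181c-5p) to 0.965 (miR-181d-5p with miR-181c-3p, of the same cluster). High values were not limited to shared clusters. miR-181d-5p with miR-181a-1-3p, of different clusters, had 0.948, and miR-181c-5p with miR-181d-5p, of the same cluster, had 0.821. Every member had KO below WT on this scale, so these correlations include the genotype difference. All of these are descriptions over 6 libraries that share scaling factors.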

How the data were processed

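Small RNA of 6 fetal liver libraries was counted per mature miRNA by the authors, and the deposited table holds raw counts and a percent column per library. The percent values equal, per the file headers and the values, the deposited count over the library total, to within 5e-09. Adapters were trimmed with cutadapt, per the submitters' processing notes; the aligner, annotation and genome build are not given in the sources used here. RNA was isolated with a miRNeasy kit and libraries were made with a NEXTflex Small RNA kit for a HiSeq2000, per the labels' protocols. The design text of the series names HITS-CLIP, while the sample labels name miRNA sequencing, as which the values were treated.

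Counts were fitted with edgeR 4.0.16 in R 4.3.3 (quasi-likelihood test, TMM, filterByExpr, 876 of 1626 miRNAs kept, Benjamini-Hochberg adjusted p under 0.05 called). The SE is the absolute log2 fold over the square root of F, an approximation. Log2 levels used a pseudocount of 0.5 CPM. Arm ratios were fitted with limma 3.58.1 on log2((5p + 1)/(3p + 1)), 3p arms of hairpins with the same 5p summed. DESeq2 1.42.0 and limma-voom were alternatives. The fits were tested on simulated data with planted changes larger than the member differences. The simulation therefore does not show whether differences as small as those of the members would be found. Sequences came from RefSeq, and all 7 members matched by name. The members, lists and tests were chosen with earlier results of these data known. The miRNAs named were all members, the other miR-181 rows, the 5 most like miR-181a-5p, the 3 most abundant of the progenitor and lymphoid lists, and the deleted locus. Further members of the lymphoid list were named to show its spread. The most abundant of the other lists were miR-122-5p, miR-126a-3p, miR-143-3p (1849 ± 330 CPM in WT and 1664 ± 420 in KO; SD, n = 3 each), miR-223-3p, miR-206-3p, whose WT mean rests on WT library 1 (203.8, 10.85 and 7.66 CPM in WT; 41.8, 7.35 and 6.97 in KO), and miR-16-5p (104200 ± 18300 and 102100 ± 5628 CPM).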

Additional observations from a re-analysis of the deposited data

How the results depend on the processing

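No paired analysis was possible because the WT libraries are numbered 1 to 3 and the KO libraries 4 to 6, so the groups share no number. In all alternatives 0 of the 7 members were called. Over 105 member folds under alternatives the adjusted p lay between 0.072 and 0.933, and the 98 with a scaling factor were all below 0. These include an alternative in which guides were summed before the fit, each sum being entered under both names. The sum of miR-181a-5p and miR-181c-5p had a log2 fold of -0.37, that of miR-181b-5p and miR-181d-5p -0.29. With no scaling factor the log2 folds turned positive for miR-181b-5p (0.082), miR-181c-5p (0.087), miR-181d-5p (0.031), miR-181a-1-3p (0.15) and miR-181c-3p (0.035). Without single libraries the log2 fold of miR-181a-5p lay between -0.48 and -0.39. The -0.38 of the full fit lies outside this range, and the fold was -0.46 with the locus removed before scaling. Its size thus moved with the fit. Arm ratio differences without single libraries, none called, lay between -0.14 (without KO library 4) and -0.020 (without KO library 6) for miR-181a. With a change of sign, they lay between -0.095 and 0.088 for miR-181b and between -0.011 and 0.12 for miR-181c. Outside the locus 4 miRNAs were called higher and 0 lower over the whole table; the number higher was 1 with RLE scaling, 1 with upper-quartile scaling, 1 with the locus removed before scaling, 58 with no scaling factor, 10 with DESeq2 (and 2 lower), 15 with miR-122-5p as covariate (and 1 lower), and 0 to 1 without single libraries. The WT guide share was 0.644% of counts outside the locus, against 0.511% of all counts, since the locus is left out of the denominator. A count of 0 allows up to 0.111 to 0.185 unscaled CPM of all counts, taking 3 counts as the limit; miR-181d-3p, at 2 to 7 counts, lies near it.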
